A study of Homo sapiens with 9 samples.

Results

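The 43 genes described here are interferon-stimulated genes, chosen by name from general knowledge of the interferon response. The choice was made with earlier results of these data known. Among the 44608 entries of each count table, all 43 genes have an entry. Of these, 31 had enough reads to be tested, among 14815 entries tested in all, and the other 12 are given at the end. The counts come from U2OS, a human osteosarcoma cell line, in 9 polyadenylated RNA libraries taken 48 h after transfection with siRNA at 75 nM. The 3 siNS libraries received a non-silencing siRNA, the 3 siNFKB2 libraries an siRNA against NFKB2, and the 3 siRELB libraries an siRNA against RELB, so every group was transfected. An untransfected group was not analysed here, and neither was a group given interferon. The labels number the replicates without saying whether they were separate cultures, so a p-value here reflects differences among libraries that could be technical in part. How many siRNA sequences were used for each target is not given in the sources used here.

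Interferons are secreted proteins that cells make when their sensors meet foreign nucleic acid. Type I interferon binds a receptor coupled to the kinases JAK1 and TYK2, which activate STAT proteins, and a complex that holds STAT2 and IRF9 binds the interferon-stimulated response element (ISRE) in promoters. The induced genes encode RNA sensors, GTPases, RNA-binding proteins, membrane proteins and a ubiquitin-like modifier that restrict viruses. Many are also kept at a low level without added interferon. NFKB2 and RELB encode partners in the non-canonical NF-kB pathway, and the levels of interferon-stimulated genes were compared between cells depleted of either and control cells.

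The knockdowns were measured first. NFKB2 was at 80.7, 126 and 117 CPM (counts scaled to a common library size, with TMM factors) in siNS replicates 1 to 3 and at 5.26, 22.9 and 48.4 CPM in siNFKB2, which is 4.86%, 21.1% and 44.8% of the siNS mean. The RELB level was 17.1, 30.3 and 34.1 CPM in siNS and at 2.66, 4.66 and 5.36 CPM in siRELB. Total counts were between 15011789 and 19279572 per library. Mitochondrial rRNA took 0.379% to 1.33% of counts in 8 libraries and 2.68% in siNFKB2 replicate 3. The libraries numbered 1 stood apart from the others in all 3 groups: their deviations from their group means correlated at 0.54 to 0.59 across 14815 genes, which are not independent replicates. Of the 31 genes tested, 7 were highest in replicate 1 of every group and 6 were lowest there, or 22.6% and 19.4%, against 24.6% and 19.6% of 14337 entries with enough counts. Results are therefore also given without these 3 libraries where that changes a call. Of 8 bone lineage markers 7 were tested, at a summed 1800 to 2710 CPM. Of 5 epithelial markers 4 were tested, at a summed 573 to 928 CPM; 1 of them, KRT8, was at 267 ± 50.1 CPM in siNS, 139 ± 7.16 in siNFKB2 and 263 ± 24.5 in siRELB, and fell in siNFKB2 (log2 -0.94, edgeR adjusted p = 0.0015), and its part in the results was not tested. Of 8 blood and immune markers 3 were tested, at a summed 20.2 to 32.3 CPM, and CD3E, a defining T cell marker, was at 0 in every library. In bulk RNA, fewer expressing cells and less RNA per cell cannot be told apart.

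The sequences below show what links many of these genes apart from their names, the letters of an ISRE close to the gene's start. In RefSeq promoters on GRCh38.p14, from 250 bases before to 50 bases after a gene's start, the letters GAAA, any 2 bases and GAAA were searched on both strands (on the other strand TTTC, any 2 bases and TTTC), with overlapping matches allowed. Of the 43 genes 34 had a promoter in the table, and 24 of the 34 (70.6%) held a match, compared with 1195 of 27305 genes (4.38%). DDX58 was matched under its current symbol RIGI. A match is a run of letters and does not show that a factor binds there. Each line gives 26 bases on the gene's strand, 5′ to 3′, with the match in capitals. GBP1, GBP3, DDX60, IFIT1, IFI44 and ISG20 are shown because they were called against siNS, and ISG15 because it is the family's namesake and was not called. DDX60, IFIT1 and ISG15 have a further match each that is not marked, which in ISG15 overlaps the one shown.
GBP1 (chr1:89065318-89065343, minus strand): cgaagtacTTTCAGTTTCatattact
GBP3 (chr1:89022847-89022872, minus strand): agaagtacTTTCAGTTTCattaggct
IFIT1 (chr10:89392512-89392537, plus strand): ctttccccTTTCGGTTTCcctaggtt
IFI44 (chr1:78649763-78649788, plus strand): acactgagTTTCAGTTTCctttctct
DDX60 (chr4:168318788-168318813, minus strand): ggagaaagGAAACCGAAActcccgcc
ISG20 (chr15:88638939-88638964, plus strand): acaaactaGAAACTGAAAcagggtcg
ISG15 (chr1:1013382-1013407, plus strand): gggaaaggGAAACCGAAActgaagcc
The windows of GBP1 and GBP3 had the same letter at 21 of 26 positions, including the whole match. IFI44 and GBP1 carry the same 10 letters in the match. The GAS (gamma-activated site) letters TTCNNNGAA were in 11 of the 34 promoters (32.4%, against 9.38% of all genes), and 1 form of the NF-kB site, GGGA, any 2 bases and TTCC, was in 3 (8.82%, against 1.97%), those of DDX58, IFIH1 and OAS3. These NF-kB letters were in 1 of 14 genes called in some comparison, DDX58, and in 2 of 12 tested genes called in none, IFIH1 and OAS3. The DDX58 match is shown because DDX58 rose in siNFKB2, and a link between the match and the rise was not tested.
DDX58 (chr9:32526255-32526280, minus strand): atttcctcGGAAAATCCCtgctttcc
ISRE letters did not separate called from uncalled genes: 10 of 14 genes called in some comparison and 9 of 12 tested genes called in none held them. Of the genes lower in siNFKB2, DDX60, IFI44 and IFIT1 have a promoter in the table and each holds ISRE letters. Of those higher, GBP3 and ISG20 hold them and DDX58 and SP100 do not.

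The interferon-stimulated genes did not move as a block in either knockdown. Between siNFKB2 and siNS 8 of 31 were called at an adjusted p below 0.05, 4 higher and 4 lower, or 25.8%, where 26.1% of all genes tested were called, 12.6% higher and 13.5% lower. The share of calls was thus close to that among all genes. The genes that rose were DDX58, GBP3, SP100 and ISG20, and those that fell were DDX60, IFIT1, GBP2 and IFI44. Between siRELB and siNS 1 of 31 was called, GBP1, which rose, where 2.02% of all genes were called, 1.21% higher and 0.810% lower. The median log2 fold change of the 31 genes was -0.12 in siNFKB2 and 0.15 in siRELB, beside -0.00 and -0.02 over all genes. Per library the median difference from the siNS mean ran from -0.09 to 0.17 among the controls. In siNFKB2 it was -0.03, -0.10 and -0.12, and for siRELB it was 0.19, 0.01 and 0.14, so the groups' medians lay within or close to the range of the controls. The libraries of a knockdown lay wholly above or below those of siNS for 10 genes in siNFKB2 (32.3%, against 37.4% of all genes) and for 11 in siRELB (35.5%, against 22.5%). With all 9 libraries no gene was called in both comparisons, which share the siNS libraries. Without the 3 libraries numbered 1 the counts were higher. In siNFKB2 6 of 31 were then higher and 10 lower (51.6%, beside 44.9% of all genes). In siRELB 8 were higher and 5 lower (41.9%, beside 22.7% of all genes). ISG15, IFI44 and IFI44L were then called lower in both comparisons. GBP2 was called lower in siNFKB2 and higher in siRELB, and SP100 the other way round.

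**Figure D1:**
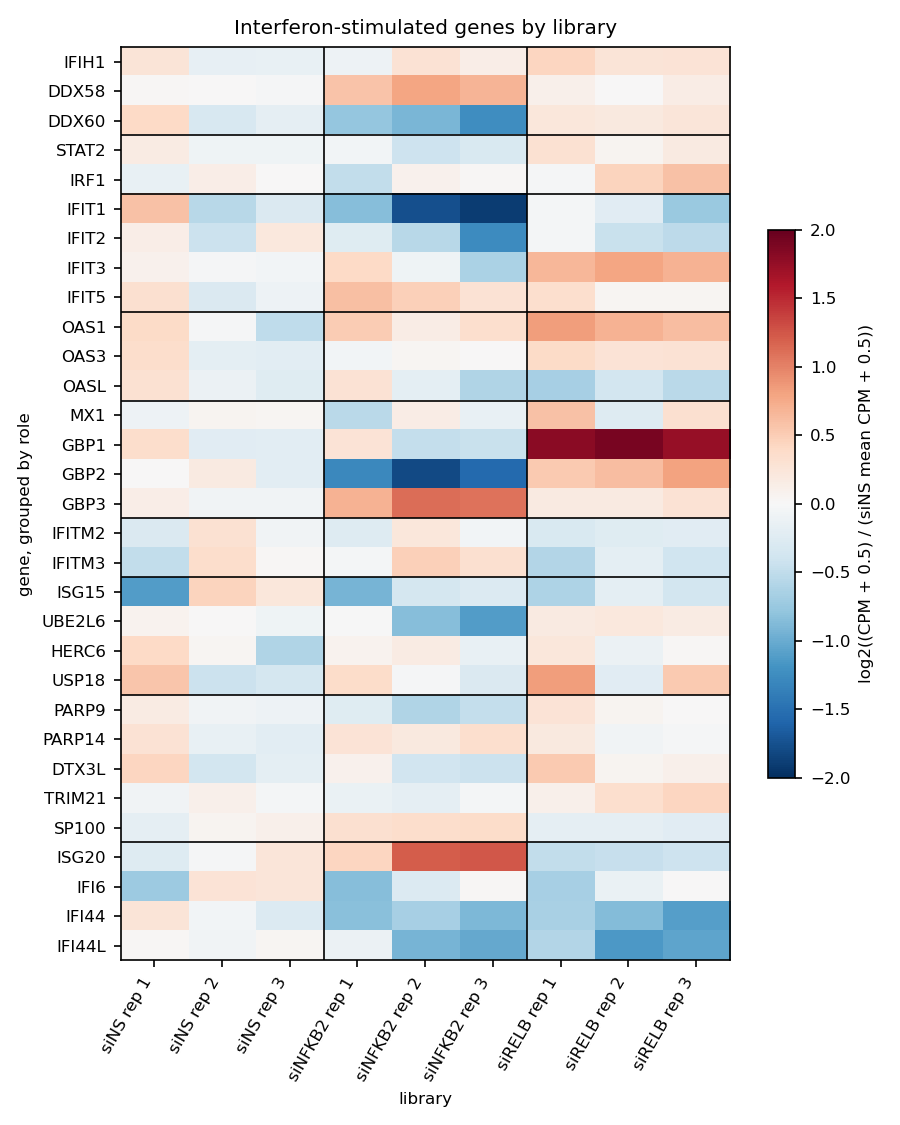
Difference of each library from the siNS mean, as log2((CPM + 0.5) / (siNS mean CPM + 0.5)), for the 31 genes tested (rows, grouped by role) in the 9 libraries (columns). Red and blue appear in the same role group, as in the GTPases, where GBP1 is high in the 3 siRELB libraries, GBP3 is high in the 3 siNFKB2 libraries and GBP2 is low in these.

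**Figure D2:**
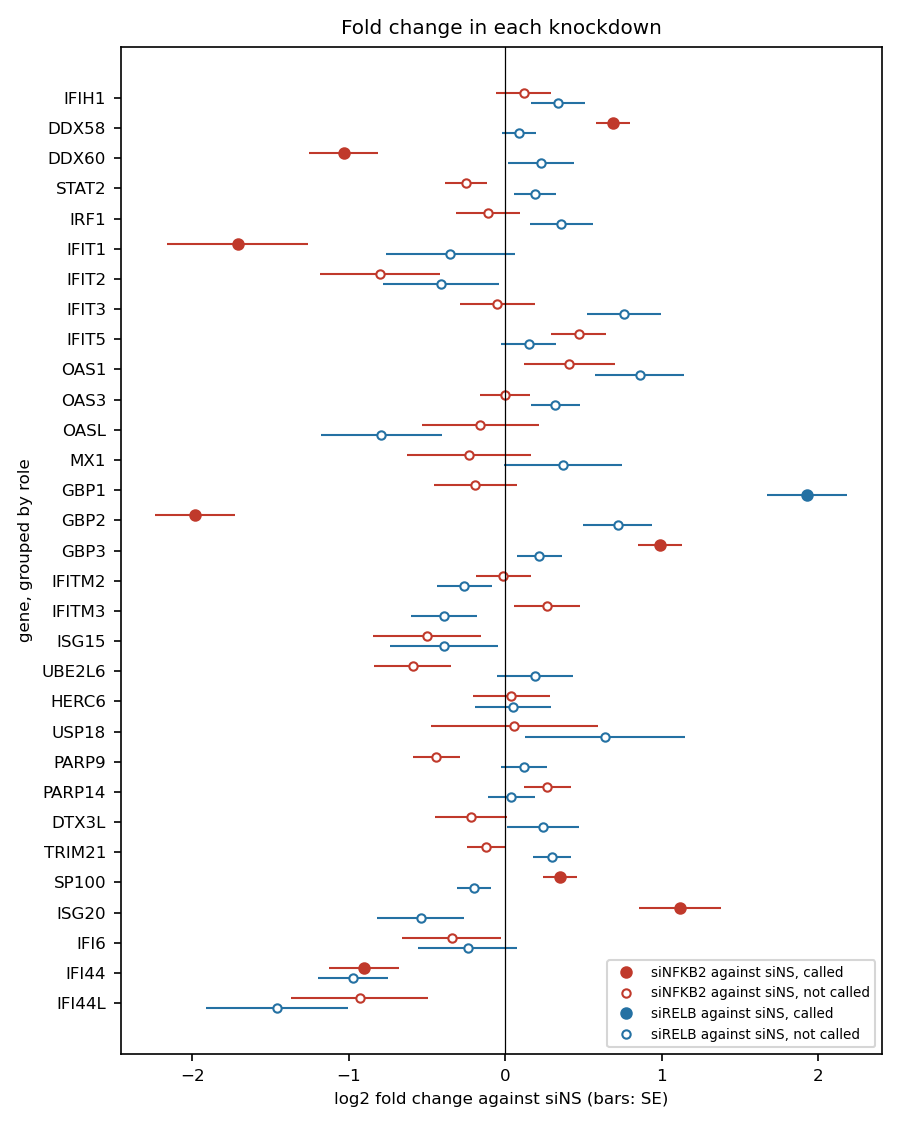
Log2 fold change against siNS (x axis) with its SE as bars, for siNFKB2 (red) and siRELB (blue), for the 31 genes tested. Filled points passed an adjusted p below 0.05, which 8 genes did in siNFKB2 and 1, GBP1, in siRELB.

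The guanylate-binding proteins, GTPases that attack pathogens inside cells, held the largest changes called against siNS, GBP2 downward and GBP1 upward, and neighbouring genes went different ways. GBP3, GBP1 and GBP2 lie on the minus strand of chromosome 1 at 89006666 to 89022894, 89052319 to 89065360 and 89106132 to 89150456 (GRCh38, GENCODE 29). GBP1 was at 5.47, 3.50 and 3.51 CPM in siNS, 5.15, 2.84 and 2.91 CPM in siNFKB2 and 15.8, 17 and 15 CPM in siRELB. All 3 siRELB libraries stood above the other 6, while siNFKB2 overlapped siNS. GBP1 rose 3.82-fold in siRELB (log2 1.93, SE 0.258, edgeR adjusted p = 0.00807) and was at log2 -0.19 in siNFKB2. GBP2 was at 3.52, 4 and 2.96 CPM in siNS, 1.13, 0.638 and 0.860 CPM in siNFKB2 and 5.23, 5.64 and 6.46 CPM in siRELB. The 3 groups did not overlap, with siNFKB2 lowest and siRELB highest. GBP2 fell 3.95-fold in siNFKB2 (log2 -1.98, SE 0.256, adjusted p = 0.000633) on 11 to 21 counts per siNFKB2 library, and its log2 value of 0.72 in siRELB did not pass (adjusted p = 0.13; 0.80 and 0.0348 without the libraries numbered 1). GBP3 was at 22.8, 19.9 and 19.8 CPM in siNS, 34.1, 45.5 and 44.7 CPM in siNFKB2 and 23.5, 23.6 and 25.6 CPM in siRELB. It rose in siNFKB2 by log2 0.99 (SE 0.142, adjusted p = 0.00106), least in replicate 1, and was at log2 0.22 in siRELB. The promoter windows of GBP1 and GBP3 printed above share their ISRE letters, yet GBP1 was called in siRELB and GBP3 in siNFKB2. Of 50-base stretches in its transcripts, GBP1 shares 9.62% with other genes, chiefly the pseudogene GBP1P1, and GBP2 shares 10.2%, chiefly with GBP7, so part of their counts is uncertain. The GBP1 call was lost without siNS replicate 3 (adjusted p = 0.0687) or siRELB replicate 2 (0.0561), while those of GBP2 and GBP3 in siNFKB2 held in every alternative run that kept the gene. MX1, a dynamin-like GTPase that blocks incoming viruses, was near 1 CPM throughout, from 0.537 to 1.16 CPM in siNS and siNFKB2 and from 0.759 to 1.74 CPM in siRELB, and was called in no comparison.

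**Figure D3:**
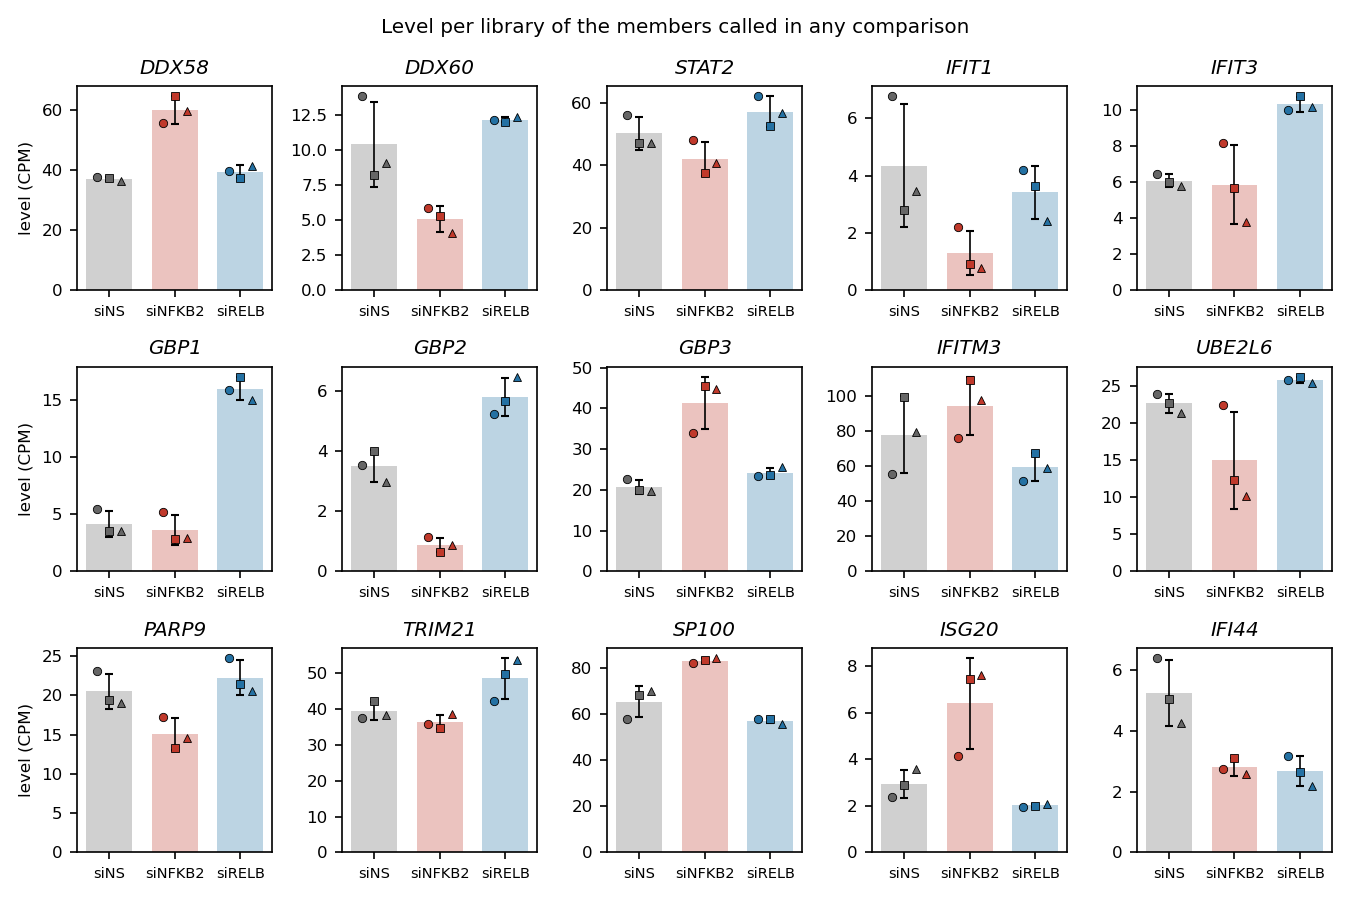
Level in CPM of the 15 genes called in any of the 3 comparisons, per library (circle, square and triangle for replicates 1, 2 and 3), with bars for the mean and whiskers for the SD of 3 libraries. GBP1 stands at 15 to 17 CPM in siRELB and at 2.84 to 5.47 CPM elsewhere, and IFI44 is lower in all 6 knockdown libraries than in any siNS library.

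The RNA sensors split. DDX58, which encodes RIG-I, a sensor of viral RNA ends, was at 37.8, 37.3 and 36.4 CPM in siNS, 55.7, 64.8 and 59.7 CPM in siNFKB2 and 39.8, 37.4 and 41.5 CPM in siRELB. The siNFKB2 libraries lay above all others, and the rise was log2 0.69 (SE 0.11, adjusted p = 0.00174). DDX60, a helicase linked to RIG-I signalling, went the other way, from 13.9, 8.25 and 9.11 CPM in siNS to 5.90, 5.28 and 4.10 CPM in siNFKB2, and was at 12.2, 12.0 and 12.4 CPM in siRELB. It fell in siNFKB2 by 1.03 on the log2 scale (SE 0.221, adjusted p = 0.00728), and all siNFKB2 libraries were below all others. Both calls held in every alternative run. IFIH1, which encodes the sensor MDA5, was between 8.44 and 13 CPM in all 9 libraries and was not called.

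Of the transcription factors, STAT2 and IRF1 were measured and neither was called against siNS. STAT2, a subunit of the complex that binds ISREs, was at 56.2, 47.2 and 47.1 CPM in siNS, 48.1, 37.4 and 40.6 CPM in siNFKB2 and 62.2, 52.4 and 56.8 CPM in siRELB. The siNFKB2 and siRELB libraries did not overlap, and siNS overlapped both. IRF1, an early activator of interferon targets, was at 18.2, 22.3 and 20.3 CPM in siNS, 14.2, 21.5 and 20.6 CPM in siNFKB2 and 19.9, 27.7 and 30.6 CPM in siRELB, with overlapping groups throughout. Its values were lowest in replicate 1 of each group. Without the libraries numbered 1, IRF1 was called higher in siRELB (log2 0.46, adjusted p = 0.0188) and STAT2 lower in siNFKB2 (adjusted p = 0.0475). On the opposite strand, C5orf56 overlaps 22.0% of the exonic length of IRF1, and whether the counting used strand is not given in the sources used here.

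Within the IFIT family, proteins that bind foreign RNA and hinder its translation, IFIT1 fell in siNFKB2. IFIT1 was at 6.78, 2.81 and 3.46 CPM in siNS, 2.20, 0.928 and 0.794 CPM in siNFKB2 and 4.20, 3.63 and 2.41 CPM in siRELB. Replicate 1 was the highest of each group, and all siNFKB2 libraries were below all others. The change was log2 -1.71 (SE 0.449, adjusted p = 0.0185), and the call was lost without siNFKB2 replicate 2 (adjusted p = 0.0867) or 3 (0.0696). IFIT3, its neighbour on chromosome 10 and binding partner, was at 6.47, 6.00 and 5.82 CPM in siNS, 8.16, 5.69 and 3.77 CPM in siNFKB2 and 9.99, 10.8 and 10.2 CPM in siRELB. Every siRELB library was above the other 6, but log2 0.76 against siNS did not pass (adjusted p = 0.137); without the libraries numbered 1 it was 0.83 (adjusted p = 0.012). IFIT2 ranged from 0.596 to 2.52 CPM and IFIT5 from 18.5 to 34.8 CPM over the 9 libraries, and neither was called. Without the libraries numbered 1, IFIT5 was called higher in siNFKB2 (log2 0.58, adjusted p = 0.00308).

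The oligoadenylate synthetases, which make a messenger that activates an RNA-degrading enzyme, were not called with all 9 libraries. OAS1 was at 2.58, 1.81 and 1.15 CPM in siNS, 2.84, 2.09 and 2.45 CPM in siNFKB2 and 3.69, 3.31 and 3.12 CPM in siRELB. All siRELB libraries were above all others, at log2 0.86 against siNS (SE 0.286, adjusted p = 0.165), and OAS1 passed without siNS replicate 1 (log2 1.19, adjusted p = 0.0273). OAS3, the most abundant, was between 29.7 and 45.3 CPM in all libraries, and OASL between 0.615 and 1.68 CPM. Without the libraries numbered 1, OAS1 (log2 1.12, adjusted p = 0.0243) and OAS3 (log2 0.50, adjusted p = 0.00577) were called higher in siRELB.

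The ISG15 conjugation genes were not called against siNS. ISG15, a ubiquitin-like protein joined to other proteins, was at 13.6, 41.1 and 35.3 CPM in siNS, 15.5, 23.4 and 24.9 CPM in siNFKB2 and 19.4, 26.3 and 23.1 CPM in siRELB. Replicate 1 was lowest in each group, and in siNS it was below every other library of the series. The log2 values were -0.50 in siNFKB2 (adjusted p = 0.323) and -0.39 in siRELB (adjusted p = 0.614). Without siNS replicate 1 they were -0.85 (adjusted p = 0.0101) and -0.74 (adjusted p = 0.0423), and without the 3 libraries numbered 1 they were -0.66 (adjusted p = 0.0012) and -0.63 (adjusted p = 0.00469), so 1 control library decided whether ISG15 was called. UBE2L6, the E2 enzyme of the pathway, was at 23.9, 22.7 and 21.3 CPM in siNS, 22.4, 12.3 and 10.1 CPM in siNFKB2 and 25.7, 26.2 and 25.4 CPM in siRELB. Replicate 1 of siNFKB2 lay among the controls and the other 2 lay well below, and without it UBE2L6 was called lower (log2 -1.01, adjusted p = 0.000991, against -0.59 and adjusted p = 0.102 with it), as it was without the 3 libraries numbered 1 (log2 -0.97, adjusted p = 0.000173). Replicate 1 of siNFKB2 also had the lowest NFKB2 level of that group, at 4.86% of the siNS mean, beside 21.1% and 44.8% in replicates 2 and 3. A link of this to the level of UBE2L6 was not tested. HERC6 was between 5.16 and 10.7 CPM. USP18, the protease that removes ISG15, was between 0.5 and 1.90 CPM, and 23.4% of its 50-base stretches occur in other genes, chiefly USP41.

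PARP9 and DTX3L form a complex of an ADP-ribosyltransferase-like protein and a ubiquitin ligase, and start head to head on chromosome 3 with 1 stretch of ISRE letters between them (chr3:122564324-122564349), printed on the DTX3L strand: agggaagcGAAACTGAAActttgcgc
PARP9 was at 23.1, 19.4 and 19 CPM in siNS, 17.3, 13.3 and 14.6 CPM in siNFKB2 and 24.8, 21.4 and 20.6 CPM in siRELB. All siNFKB2 libraries were below all others, at log2 -0.44 against siNS, just short of the threshold (adjusted p = 0.0538; 0.0425 by DESeq2, 0.0258 with siNFKB2 replicate 1 left out, and 0.0108 with all 3 libraries numbered 1 left out). DTX3L was at 103, 58.7 and 66.4 CPM in siNS, 80.9, 58.0 and 56.5 CPM in siNFKB2 and 109, 79.3 and 81.2 CPM in siRELB, with replicate 1 highest in each group and overlapping groups. SP100, a scaffold of nuclear bodies that silences viral genomes, was at 58.1, 68.4 and 70.3 CPM in siNS, 82.2, 83.6 and 84.6 CPM in siNFKB2 and 58.0, 57.9 and 55.9 CPM in siRELB. It rose in siNFKB2 by log2 0.35 (SE 0.108, adjusted p = 0.0381) with all siNFKB2 libraries above all others. That call did not hold with any 1 of the 9 libraries left out (adjusted p from 0.0513 to 0.0856). TRIM21, an antibody receptor inside cells, was at 37.6, 42.3 and 38.3 CPM in siNS, 35.9, 34.7 and 38.5 CPM in siNFKB2 and 42.2, 49.8 and 53.5 CPM in siRELB. The siRELB libraries lay above siNFKB2 and touched the top of siNS. PARP14 was between 56.5 and 81.9 CPM, and neither gene was called against siNS. Without the libraries numbered 1, PARP14 was called higher in siNFKB2 (log2 0.44, adjusted p = 0.0036). In siRELB, TRIM21 (log2 0.36, adjusted p = 0.0352) and DTX3L (log2 0.36, adjusted p = 0.0244) were then called higher and SP100 lower (log2 -0.28, adjusted p = 0.0471).

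Among the membrane proteins, IFITM3, which blocks viral fusion in endosomes, had the highest mean level of the 31 genes per exonic length in siNS. It was at 55.5, 99.1 and 79.2 CPM in siNS, 76.1, 109 and 97.5 CPM in siNFKB2 and 51.6, 67.7 and 59.1 CPM in siRELB. Replicate 2 was highest and replicate 1 lowest in each group, and neither knockdown passed against siNS. Without the libraries numbered 1, IFITM3 was called lower in siRELB (log2 -0.49, adjusted p = 0.0172). With a term for the replicate number in the model, it was called higher in siNFKB2 (log2 0.29, adjusted p = 0.046). IFITM2 was between 28.9 and 44.4 CPM and was not called. The IFITM genes are similar in sequence: 17.4% of the 50-base stretches of IFITM3 and 34.1% of those of IFITM2 occur in other genes, so reads may be split between them.

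Of the remaining induced genes, ISG20 and IFI44 changed in siNFKB2 in opposite directions. ISG20, an exonuclease that degrades RNA, was at 2.37, 2.88 and 3.57 CPM in siNS, 4.13, 7.43 and 7.61 CPM in siNFKB2 and 1.95, 2.01 and 2.08 CPM in siRELB. All siNFKB2 libraries were above and all siRELB libraries below the controls. The rise in siNFKB2 was log2 1.12 (SE 0.263, adjusted p = 0.0114; 0.0516 without siNFKB2 replicate 2), and siRELB was not called. IFI44, a cytoplasmic protein of the response, was at 6.42, 5.06 and 4.28 CPM in siNS, 2.74, 3.13 and 2.58 CPM in siNFKB2 and 3.18, 2.66 and 2.19 CPM in siRELB. All 6 knockdown libraries were below all controls. The log2 values were -0.90 in siNFKB2 (SE 0.225, adjusted p = 0.0154; 0.0566 without siNFKB2 replicate 3) and -0.97 in siRELB (SE 0.225, adjusted p = 0.059; 0.0111 by DESeq2, and 0.0202 without the libraries numbered 1). IFI44L, its neighbour and paralogue, was at 1.37, 1.25 and 1.37 CPM in siNS, 1.18, 0.464 and 0.397 CPM in siNFKB2 and 0.717, 0.325 and 0.383 CPM in siRELB. It was also below the controls in all 6 libraries, but on 6 to 26 counts, and passed in neither comparison with all 9 libraries. Without those numbered 1 it was called lower in siNFKB2 (log2 -1.59, adjusted p = 0.0145) and in siRELB (log2 -1.87, adjusted p = 0.0144). The lower values in both knockdowns are set against 1 shared set of controls. IFI6, a mitochondrial protein of the response, was between 7.19 and 16.4 CPM with replicate 1 lowest in each group, and was not called. Without the libraries numbered 1 it was called lower in siNFKB2 (log2 -0.40, adjusted p = 0.0466).

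The direct comparison of siNFKB2 with siRELB tests whether the knockdowns differ, and it uses no siNS library for its means. Of 31 genes 14 were called, 5 higher and 9 lower in siNFKB2, or 45.2%, where 26.6% of all genes were called, 12.2% higher and 14.3% lower. The median log2 difference of the 31 genes was -0.32, beside 0.02 over all genes. Every siNFKB2 library lay on the same side of every siRELB library for 16 of 31 genes (51.6%), against 46.0% of all genes. The 9 lower genes were GBP2 (log2 -2.71), GBP1 (-2.12), IFIT1 (-1.36), DDX60 (-1.26), IFIT3 (-0.81), UBE2L6 (-0.78), PARP9 (-0.56), STAT2 (-0.44) and TRIM21 (-0.42). The 5 higher genes were ISG20 (1.66), GBP3 (0.78), IFITM3 (0.66), DDX58 (0.60) and SP100 (0.54). Adjusted p ran from 0.000179 for GBP2 to 0.0483 for IFIT1. Of the 14, 8 were also called against siNS, and IFIT3, IFITM3, PARP9, STAT2, TRIM21 and UBE2L6 were called between the knockdowns only. The calls of DDX58, DDX60, GBP1, GBP2, GBP3, ISG20 and SP100 held in every alternative run that kept the gene. The other 7 were each lost with 1 library left out, at an adjusted p between 0.0548 and 0.175. Leaving out siNS replicate 3, siNFKB2 replicate 2 or 3, or any siRELB replicate lowered the number of the 31 called lower from 9 to between 3 and 5. Calls among all genes fell too, from 3934 to 2188 without siNFKB2 replicate 2 and 2593 without siNFKB2 replicate 3. They were 2312 without siRELB replicate 2 and 2340 without siRELB replicate 3. Without the 3 libraries numbered 1, 18 of 31 were called, beside 44.1% of all genes, and the median difference was -0.07. The 4 added calls were IFIT5 (0.35) and PARP14 (0.31), higher in siNFKB2, and DTX3L (-0.49) and IRF1 (-0.47), lower there.

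In the control cells these genes spanned a wide range of levels. Per kb of exonic length (GENCODE 29), IFITM3 was at 57.8 ± 16.2 CPM per kb, ISG15 at 31.9 ± 15.4, IFITM2 at 23.4 ± 4.96 and TRIM21 at 20.4 ± 1.33 (SD, n = 3). The ranges of IFITM3 and ISG15 overlapped between libraries, as did those of ISG15, IFITM2 and TRIM21, so their order is not fixed. At the lower end MX1 was at 0.116 ± 0.0107, IFI44L at 0.130 ± 0.00672, OASL at 0.360 ± 0.105, OAS1 at 0.373 ± 0.144, USP18 at 0.395 ± 0.257, ISG20 at 0.399 ± 0.0819, IFIT2 at 0.514 ± 0.143, GBP2 at 0.557 ± 0.0828, GBP1 at 0.834 ± 0.227 and IFIT1 at 0.943 ± 0.462 CPM per kb. Each neighbouring pair in this order overlapped between libraries except IFI44L with OASL and GBP2 with GBP1. DDX58 (8.54 ± 0.159) and STAT2 (8.22 ± 0.854) lay in between. Lengths count every annotated exon and may differ from the annotation used for counting.

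**Figure D4:**
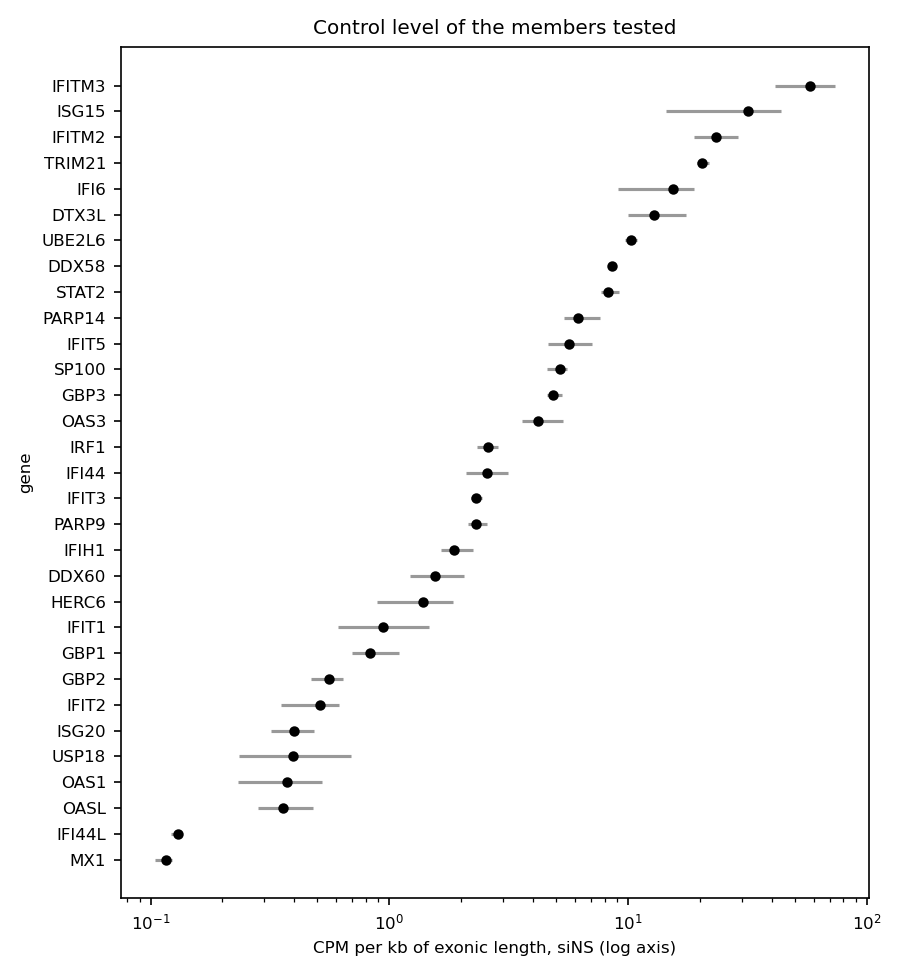
Level of the 31 genes tested in the siNS libraries, in CPM per kb of exonic length on a log axis. Points are means of 3 libraries and lines run from the lowest to the highest library, from MX1 at 0.116 to IFITM3 at 57.8 CPM per kb.

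The 12 genes not tested fell into 2 kinds. The first kind, 9 genes with at most 9 counts in any library, were the restriction factors BST2, IFITM1, RSAD2 and MX2, the sensor DHX58, the ligase HERC5, and OAS2, IFI35 and XAF1. HERC5 had 0 counts in the 3 siNS libraries and 4 counts in all 9, and XAF1 had 1 count in all 9; 0 counts allow up to 0.156 to 0.2 CPM, for counting error only. The second kind were IRF7, IRF9 and IFI27, which stood at exactly 0 in all 9 libraries. Each has a second entry for a further placement of the gene, also at 0. The 20 entries next to IRF9 in the tables all have such a second entry, and 17 of them were at 0 too, among them PSME1 and NEDD8, which nearly all cells express. Next to IFI27, 15 of 17 such entries were at 0, DDX24 among them, and next to IRF7, 8 of 14, HRAS among them. Over all entries 79.6% of 2651 genes with a further placement were at 0 in every library, against 31.0% of 36927 without. Some such entries did hold counts, as DEAF1 next to IRF7 with 1308. The 0 of IRF7, IRF9 and IFI27 is therefore not taken as a measurement of their level. Absence of their RNA and reads left uncounted cannot be told apart here. Whether IRF9, a subunit of the ISRE-binding complex, changed was not measured.

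Other genes of the pathway were taken from lists made beside the 43 genes. None of 10 interferon genes was tested: IFNB1, IFNA1, IFNA2, IFNK, IFNG, IFNL1, IFNL2 and IFNL3 had 0 counts in all 9 libraries, IFNW1 had 1 count and IFNE, which is expressed in epithelia, had 36. Of 11 receptor and JAK-STAT genes 1 rose and 1 fell in siNFKB2 (18.2%, against 26.1% of all genes) and none was called in siRELB. IFNAR1, a receptor chain for type I interferon, rose from 105 ± 18.4 to 153 ± 12.5 CPM (log2 0.54, adjusted p = 0.0163). STAT3, a signal carrier for other cytokines too, fell by 0.95 on the log2 scale, from 175 ± 5.85 to 90.5 ± 2.89 CPM (adjusted p = 0.000267), and was at 135 ± 8.33 CPM in siRELB. Of 6 tested restraints of interferon signalling 1 fell in siNFKB2 (16.7%, against 26.1% of all genes). This was SOCS3, an inhibitor of JAK kinases, with a log2 change of -1.28 (adjusted p = 0.000614) between 13.6 ± 2.07 and 5.57 ± 0.162 CPM. It was at 10.2 ± 1.15 CPM in siRELB. Of 14 tested genes that act between nucleic acid sensors and interferon, 4 rose and none fell in siNFKB2. The share called, 28.6%, was close to the 26.1% of all genes. The 4 genes were TRAF3 (log2 0.62), TBKBP1 (0.56), IKBKE (0.54) and TBK1 (0.33), an adaptor, a TBK1 partner and 2 kinases that activate IRF3. TBK1 was called in opposite directions, at 63.7 ± 2.86 CPM in siNS, 80.3 ± 3.26 in siNFKB2 (adjusted p = 0.0381) and 43.7 ± 2.55 in siRELB (adjusted p = 0.0318). In siRELB it was the 1 gene of the 14 called (7.14%, beside 2.02% of all genes). Genes of these further lists, TBK1 among them, were not put through the alternative runs, so how stable their calls are was not tested. Of 47 further interferon-induced genes tested, 7 rose and 9 fell in siNFKB2 and 1, TDRD7, rose in siRELB. Those with the smallest adjusted p in siNFKB2 were the RNA helicase MOV10 (log2 -1.32), BATF2 (1.19), CD274, which encodes the checkpoint ligand PD-L1 (1.79), SHISA5 (-1), SP110 (0.63) and TRIM14 (-0.95). The median log2 fold change over the 47 was -0.11 in siNFKB2 and 0.08 in siRELB. Shares called, 16 of 47 in siNFKB2 (34%) and 1 of 47 in siRELB (2.13%), stand beside the 26.1% and 2.02% of all genes.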

How the data were processed

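Polyadenylated RNA of U2OS cells was measured in 9 libraries, 3 per siRNA group, grouped by the labels' titles. The authors deposited whole-number read counts per gene symbol, 1 table per library, with no normalization. The submitters' processing notes list Trimmomatic 0.38, STAR 2.7.1a, Subread 1.6.4 and GRCh38.p13. Their settings, strand use, the annotation and the handling of reads with several placements were not given in the sources used here. For testing, genes were filtered with filterByExpr, scaled by TMM and fitted with edgeR 4.0.16 in R 4.3.3 as 3 group means over all 9 libraries. Comparisons used its quasi-likelihood test, adjusted by Benjamini-Hochberg over 14815 genes, with calls at an adjusted p below 0.05. Every adjusted p printed is from this test unless DESeq2 (version 1.42.0) is named. Each SE was derived from the fold change and its F statistic. The script was tested on simulated data.

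Genes and lists were chosen with earlier results of these data known. Named are the genes called in any comparison, ISG15, MX1, OAS1, IRF1 and STAT2, the targets, the most abundant gene of a role group, and up to 6 called genes per further list by smallest adjusted p. Any others are given by range. Alternatives were DESeq2, its size factors, 2 filters, only 6 libraries, further placements summed, a replicate block, each library left out, and the libraries numbered 1 left out. Within groups no library was a copy of another (chi-square per degree of freedom at least 3.32).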

Additional observations from a re-analysis of the deposited data

Results flagged for a closer look

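The effects of both knockdowns differed by the direct test of siNFKB2 against siRELB (edgeR quasi-likelihood, adjusted p below 0.05) for 14 genes. The log2 differences were -2.71 for GBP2, -2.12 for GBP1, -1.36 for IFIT1, -1.26 for DDX60, -0.81 for IFIT3, -0.78 for UBE2L6, -0.56 for PARP9, -0.44 for STAT2 and -0.42 for TRIM21, which were lower in siNFKB2. They were 1.66 for ISG20, 0.78 for GBP3, 0.66 for IFITM3, 0.60 for DDX58 and 0.54 for SP100, which were higher there. In the same comparison 26.6% of all genes tested were called.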

How the results depend on the processing

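Over 17 alternatives, 881 of 985 values of the named genes and both targets kept their direction and their side of the threshold, 66 lost a call, 31 gained a call and 7 reversed. All genes called in a comparison kept their direction. In every alternative run that kept the gene, 4 of 8 calls in siNFKB2 against siNS, 0 of 1 in siRELB and 7 of 14 between the knockdowns held. A filter at a mean of 5 CPM dropped GBP2, IFIT1, ISG20 and IFI44; 2 genes were then lower in siNFKB2, DDX60 and PARP9 (-0.45, adjusted p = 0.0454). In siRELB, DESeq2 called 813 genes and 1 of the 31 lower, no filter 1 lower, and the 6 libraries alone 129 genes. With only 6 libraries NFKB2 was at -2.09 (adjusted p = 0.0502). Same-numbered libraries correlated at 0.04 to 0.59, so the numbers were not taken to pair them; with a replicate block 5944 genes were called in siNFKB2, 1570 in siRELB (3 of the 31 higher, 2 lower) and 6054 between the knockdowns. Without the 3 libraries numbered 1 there were 6711, 3390 and 6600, with 10 of the 31 lower in siNFKB2, and 8 higher and 5 lower in siRELB. With the replicate block, named genes gained calls. In siNFKB2 these were IFITM3 (0.29, adjusted p = 0.046), UBE2L6 (-0.64, 0.0202) and PARP9 (-0.45, 0.00907). In siRELB they were IFIT3 (0.77, adjusted p = 0.032), OAS1 (0.89, 0.0419) and IFI44 (-0.97, 0.0108). Between the knockdowns it was IRF1 (-0.47, adjusted p = 0.0104). The median between the knockdowns was -0.17 with DESeq2 and -0.18 with no filter, both over 40 genes as low ones were kept, and -0.07 without the libraries numbered 1.

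With 1 library left out, calls numbered 2220 to 4895 in siNFKB2 (of the 31, 2 to 5 higher and 2 to 7 lower; median -0.17 to -0.00), 15 to 1819 in siRELB (0 to 3 higher, 0 to 1 lower; median 0.07 to 0.27) and 2188 to 4917 between the knockdowns (4 to 5 higher, 3 to 10 lower; median -0.34 to -0.22). Over all alternatives NFKB2 in siNFKB2 ran from -2.93 to -1.60 and RELB in siRELB from -2.93 to -2.44. With 1 library left out, the NFKB2 call was lost in 3 runs (adjusted p from 0.0532 to 0.0936). The RELB call was lost in 2 (adjusted p 0.0575 and 0.0591). Reversed, and called in neither case, were GBP1 (0.06 without siNS 1; lowest -0.54), IRF1 (0.05 without siNFKB2 1; lowest -0.20), MX1 (0.02 without siNFKB2 1; lowest -0.50) and IFIT3 (0.19 without siNFKB2 3; lowest -0.36) in siNFKB2. The others were IFIT1 in siRELB (0.12 without siNS 1; lowest -0.60) and, between the knockdowns, ISG15 (0.07 without siNFKB2 1; lowest -0.23) and IFI44 (-0.05 without siRELB 3; highest 0.22). The cause of these changes was not tested. IFI44L rested on at most 26 counts per library, and GBP2 in siNFKB2 on at most 21.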
